A study of Mus musculus with 6 samples.

Results

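The genes examined here encode the chains of mouse MHC class I molecules together with their common light chain and their transactivator. They are the 10 genes H2-K1, H2-D1, H2-Q4, H2-Q6, H2-Q7, H2-T22, H2-T23, H2-M3, B2m and Nlrc5, taken by gene name from the deposited table, in which each matched 1 locus, and all 10 were among the 19227 named loci tested out of 44794. They were measured by RNA sequencing of whole spleen. All mice had received imiquimod, which activates the endosomal receptor TLR7, on a schedule of 3 treatments a week over 4 weeks. The controls were 3 samples of B6.Sle1b mice, an autoimmune-prone C57BL/6 line with the Sle1b lupus susceptibility interval. The knockouts were 3 samples of Sle1b.IFNγR-/- mice, which carry the same interval and lack the interferon-γ receptor. All 6 samples therefore shared the interval and the treatment, and no untreated or Sle1b-free spleen was analysed here. The labels give neither the disrupted receptor subunit nor age or sex. Whether each sample came from its own animal is not stated in them, and the p-values cover only sample-to-sample spread, which may be technical. Because whole spleen was sequenced, a lower level in fewer cells and a lower level per cell cannot be told apart.

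An MHC class I molecule is a heavy chain paired with β2-microglobulin, the product of B2m, and it displays peptides from inside the cell to CD8 T cells. H2-K1 and H2-D1 encode the classical heavy chains, which nearly all nucleated cells carry. The nonclassical chains are encoded in the Q, T and M regions of the same complex and have narrower roles. Interferon-γ raises class I transcription through the transcription factor IRF1 and the transactivator NLRC5. These act at a short stretch before the gene start that holds an NF-κB site, an interferon response site and a module of X and Y boxes.

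In GENCODE M21, on build GRCm38, the 8 heavy-chain genes lie on chromosome 17 and are protein-coding. H2-K1 lies on the minus strand at chr17:33996017-34000347. H2-D1 lies on the plus strand at chr17:35262730-35267499. The Q region genes follow on the plus strand, with H2-Q4 at chr17:35379617-35385290, H2-Q6 at chr17:35424850-35430055 and H2-Q7 at chr17:35439155-35443773. H2-T23 (chr17:36029773-36032855) and H2-T22 (chr17:36037128-36042747) lie near each other on the minus strand. H2-M3 lies on the plus strand at chr17:37270220-37274484. B2m lies at chr2:122147686-122153083 and Nlrc5 at chr8:94434356-94527272, both on the plus strand.

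The 200 bases before the annotated start were examined because interferon acts on class I genes there. RefSeq (GRCm38.p6) gave such a stretch for 9 of the genes, and 6 are printed here to set a classical, a Q, an M, both T region genes and the light chain side by side, 5′ to 3′ on the gene's strand. They run over chr17:34000348-34000547 for H2-K1, chr17:35438955-35439154 for H2-Q7, chr17:37270034-37270233 for H2-M3, chr17:36042743-36042942 for H2-T22, chr17:36032702-36032901 for H2-T23 and chr2:122147487-122147686 for B2m. Capitals mark matches on either strand to any of the motifs described after the sequences.
H2-K1: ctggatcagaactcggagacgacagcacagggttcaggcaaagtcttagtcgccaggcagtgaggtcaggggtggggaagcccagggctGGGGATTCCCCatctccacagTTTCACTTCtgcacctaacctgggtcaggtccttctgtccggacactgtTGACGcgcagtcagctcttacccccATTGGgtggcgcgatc
H2-Q7: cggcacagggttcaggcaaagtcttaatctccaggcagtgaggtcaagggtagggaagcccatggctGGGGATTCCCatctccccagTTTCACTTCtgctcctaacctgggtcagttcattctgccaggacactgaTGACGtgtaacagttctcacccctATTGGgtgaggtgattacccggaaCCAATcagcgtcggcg
H2-M3: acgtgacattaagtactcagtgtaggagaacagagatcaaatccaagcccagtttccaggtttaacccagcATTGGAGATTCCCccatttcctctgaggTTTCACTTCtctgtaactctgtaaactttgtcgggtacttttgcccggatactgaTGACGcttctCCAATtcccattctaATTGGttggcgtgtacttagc
H2-T22: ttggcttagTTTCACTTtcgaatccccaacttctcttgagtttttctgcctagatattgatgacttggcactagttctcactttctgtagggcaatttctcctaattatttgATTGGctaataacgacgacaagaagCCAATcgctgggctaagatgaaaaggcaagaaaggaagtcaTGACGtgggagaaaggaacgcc
H2-T23: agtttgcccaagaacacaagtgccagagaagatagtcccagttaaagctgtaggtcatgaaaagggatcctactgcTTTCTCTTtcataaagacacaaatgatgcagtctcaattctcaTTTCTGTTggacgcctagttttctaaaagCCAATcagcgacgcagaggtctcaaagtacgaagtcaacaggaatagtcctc
B2m: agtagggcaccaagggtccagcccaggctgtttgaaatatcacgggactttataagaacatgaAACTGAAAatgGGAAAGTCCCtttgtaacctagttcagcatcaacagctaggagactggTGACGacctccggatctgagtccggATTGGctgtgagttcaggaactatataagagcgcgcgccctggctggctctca

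Both strands of the 200 bases were searched, and matches to different motifs may overlap. The stretches of H2-K1, H2-D1, H2-Q4, H2-Q6 and H2-Q7 share much of their sequence, so their matches are not separate occurrences. Most of the motifs were those already described for class I genes. The shares over all stretches are therefore given as a description, not as a test. The interferon response core GAANNGAAA occurred in 6 of the 9 stretches (H2-K1, H2-D1, H2-Q4, H2-Q6, H2-Q7 and H2-M3) and in 5% of all 32851 RefSeq stretches of that length. In H2-K1 this match ran from base -90 to -82 before the start, and in H2-Q7 from -113 to -105. The shorter form AANNGAAA, which lies inside it and was searched after the longer form had been seen to miss B2m, H2-T22 and H2-T23, occurred in 9 of 9 and in 17% of all. The NF-κB consensus occurred in 7 of 9, all but H2-T22 and H2-T23, against 6.07% of all stretches. In H2-K1 the NF-κB matches began at -111, before the interferon match at -90. In H2-T22 the shorter interferon match began at -191, so a site spaced likewise would lie outside the bases searched. The search thus cannot show that H2-T22 lacks one. The X2 core TGACG occurred in 7 of 9, against 15.7%, and CCAAT in 9 of 9, against 29.3%. In H2-Q4 TGACG lay at -73 to -69, just after a CCAAT match at -79 to -75. In H2-T22 it lay at -22 to -18, after the CCAAT matches that began at -88 and -63. A match to TGACG alone therefore does not show the X box of the module. The gamma-activated site TTCNNNGAA had 0 matches in the 9, against 5.49% of all. The RefSeq start lay 364 bases from the GENCODE start for H2-D1 and 154 for H2-T23, and at most 14 for the others. H2-T23 carried neither the NF-κB consensus nor the longer interferon motif. Most of its stretch lay inside the GENCODE gene, however, so bases before the GENCODE start were largely not searched.

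The values are fragment counts per locus that the authors scaled between libraries. The libraries held 4394300 to 6349824 fragments. B6.Sle1b replicate 1 stood apart: 29 ribosomal protein genes had a median level there of 3.05 times their geometric mean over the 6 libraries, against 0.743 and 0.985 in the other controls and 0.867 to 0.875 in the knockouts. Loci with a gene name held 26.96% of its values and 17.5% to 19.95% of those of the other 5. The spleen showed B cell markers: Cd22 ran from 192 to 303 in the controls and from 213 to 249 in the knockouts, and Ms4a1 from 59.2 to 176 and from 69.1 to 107. Cd79b was less steady, from 11.5 to 85.6 and from 25.2 to 30.3.

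No class I gene passed the test between genotypes, and the largest differences among the 10, all towards lower levels in the knockouts, were those of H2-T22 and the classical heavy chains H2-D1 and H2-K1. Across the 10 genes, 0 passed a Benjamini-Hochberg adjusted p of 0.05 in limma, where 0% of the 19227 loci passed and 596 had an unadjusted p under 0.05. Log2 differences on the log2(value + 1) scale, which understates changes of low genes, were below 0 for 9 of 10 genes, and for 6 of 10 when libraries were scaled to the ribosomal protein genes. Below 0 were 58.1% of all loci as deposited and 14.3% with ribosomal scaling. The median of the 10 was -0.60 beside -0.083 over all loci, and -0.020 beside 0.48 with ribosomal scaling. Without B6.Sle1b replicate 1 the median of the 10 was -0.29, beside 0.019 over all loci. A gene that missed the threshold is not thereby shown to be at the same level in both genotypes. With an unadjusted limma p under 0.05 there were 3 lower genes, H2-K1, H2-D1 and H2-T22, against 2.08% of all loci. That count depended on the setting. It was 0 without B6.Sle1b replicate 1, with ribosomal scaling and with no low-value filter. It was 6 without B6.Sle1b replicate 2, where 1748 of 19354 loci had such a p, and 7 with array weights, where 2181 of 19227 did. The groups overlapped for all 10 genes on the deposited scale, where 5.19% of loci were lower without overlap.

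**Figure D1:**
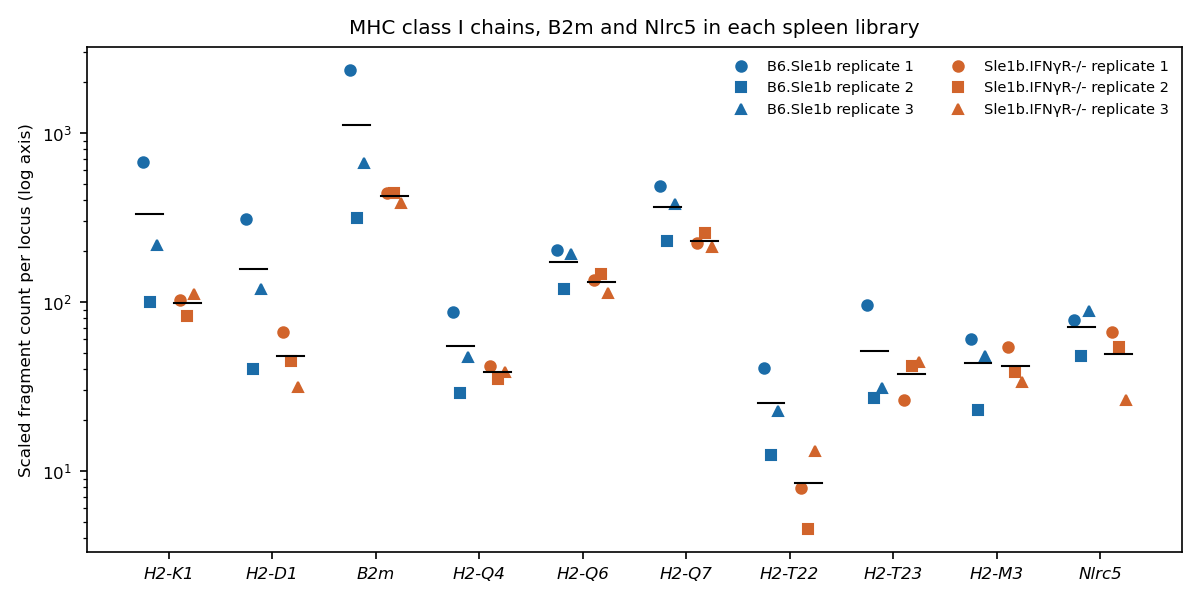
Scaled fragment count per locus (log axis) of the 10 genes in each of the 6 libraries, with B6.Sle1b in blue, Sle1b.IFNγR-/- in orange, a symbol per replicate and a line at the group mean. B6.Sle1b replicate 1 is the highest library for 9 of the 10 genes, and the 3 Sle1b.IFNγR-/- libraries lie close together for B2m (387 to 444).

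H2-K1 and H2-D1 encode the classical chains that present most peptides to CD8 T cells. For H2-K1 the scaled counts of control replicates 1, 2 and 3 were 675, 99.5 and 218, and those of knockout replicates 1, 2 and 3 were 102, 82.0 and 111. Values of other genes follow the same order of replicates. The knockout libraries lay together around the level of B6.Sle1b replicate 2, and 2 of them were above it, so the groups overlapped. The log2 difference was -1.32 (SE 0.51, 95% interval -2.42 to -0.21, limma adjusted p = 0.99976), or 0.402 times the control level. Without B6.Sle1b replicate 1 it was -0.59, and without replicate 2 it was -1.96 (limma adjusted p = 0.059). H2-D1 had 309.8, 40.3 and 119 in controls against 66.5, 45.0 and 31.1 in knockouts. Here 1 knockout library lay below the lowest control, and the log2 difference was also -1.32 (SE 0.57, 95% interval -2.54 to -0.089), or -0.60 without B6.Sle1b replicate 1 and -2.06 without replicate 2 (limma adjusted p = 0.064).

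B2m encodes the light chain that pairs with the class I heavy chains. It had 2359, 314 and 667 in controls against 441, 444 and 387 in knockouts. All 3 knockout values lay between the lowest and the middle control. The log2 difference was -0.90 (SE 0.52, 95% interval -2.03 to 0.22). It was -0.11 without B6.Sle1b replicate 1 and -1.57 without replicate 2. Nlrc5, whose product drives class I promoters, had 78.5, 47.7 and 88.1 against 66.5, 53.9 and 26.4. It was the only gene of the 10 with its highest control value outside replicate 1, and its log2 difference was -0.59 (SE 0.39, 95% interval -1.43 to 0.25), or -0.50 without B6.Sle1b replicate 1 and -0.20 without knockout replicate 3.

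Among the Q region genes, H2-Q7, which encodes a Qa-2 antigen, had 486, 229 and 382 in controls against 222, 254 and 212 in knockouts. Of the knockout libraries 2 lay below the lowest control, and the log2 difference was -0.61 (SE 0.29, 95% interval -1.24 to 0.028). It was -0.37 without B6.Sle1b replicate 1 and -0.91 without replicate 2. Its close relative H2-Q6 had 202, 119 and 193 against 136, 146 and 113, a log2 difference of -0.35 (SE 0.29) that was -0.21 without B6.Sle1b replicate 1 and -0.59 without replicate 2. H2-Q4, which encodes the Qb-1 antigen, had 87.6, 28.8 and 46.9 against 42.0, 34.8 and 38.3. Every H2-Q4 knockout value lay inside the control range, and the log2 difference of -0.35 (SE 0.40) was 0.057 without B6.Sle1b replicate 1 and -0.73 without replicate 2.

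H2-T22, which encodes a ligand of some γδ T cell receptors, had 40.8, 12.3 and 22.5 in controls against 7.87, 4.50 and 13.2 in knockouts. These rest on 40, 15 and 24 fragments against 9, 4 and 11. The 4 fragments have an exact Poisson 95% interval of 1.09 to 10.2, which covers counting error only. Of the knockout libraries 2 lay below the lowest control, and the log2 difference was -1.41 (SE 0.59, 95% interval -2.69 to -0.14), or -1.001 without B6.Sle1b replicate 1. H2-T23 encodes Qa-1, the chain that shows class I leader peptides to the CD94/NKG2 receptors of NK cells. It had 95.8, 27.1 and 30.9 against 26.2, 41.6 and 44.3, and its log2 difference of -0.24 (SE 0.46) became 0.32 without B6.Sle1b replicate 1 and 0.33 with ribosomal scaling, and ranged from -0.57 to -0.012 when any other library was left out. H2-M3, which presents N-formylated peptides, had 60.1, 23.02 and 47.8 against 54.2, 38.2 and 33.5. Its knockout values lay inside the control range, with a log2 difference of 0.020 (SE 0.40, 95% interval -0.84 to 0.88) that was 0.30 without B6.Sle1b replicate 1. Leaving out B6.Sle1b replicate 2 turned it to -0.37, and leaving out knockout replicate 1 to -0.17.

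**Figure D2:**
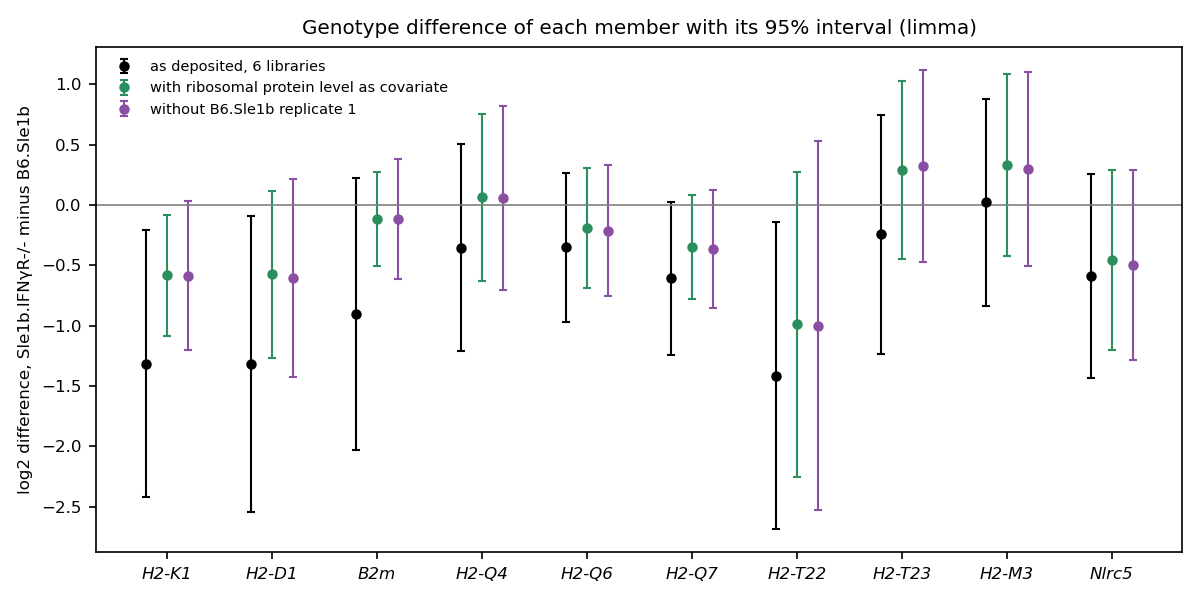
Log2 difference, Sle1b.IFNγR-/- minus B6.Sle1b, of each gene with its 95% interval from limma, as deposited (black), with the library's ribosomal protein level in the fit (green) and without B6.Sle1b replicate 1 (purple). H2-K1 moves from -1.32 to -0.58 with the covariate, and B2m from -0.90 to -0.12.

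When the library's ribosomal protein level entered the fit as a covariate, the differences of the classical chains and B2m moved most towards 0. That level was 3.05 times the geometric mean in B6.Sle1b replicate 1 and 0.743 to 0.985 times in the other libraries. The covariate therefore mainly sets that library apart, and this fit is not a check separate from leaving it out. H2-K1 stood at -0.58 (SE 0.24, 95% interval -1.08 to -0.085, limma adjusted p = 0.905), H2-D1 at -0.58 (SE 0.33) and B2m at -0.12 (SE 0.19). H2-T22 stood at -0.99 (SE 0.61), H2-Q7 at -0.35 (SE 0.21) and Nlrc5 at -0.46 (SE 0.36). H2-T23 and H2-M3 had positive values, 0.29 (SE 0.36) and 0.33 (SE 0.36). Again 0 of the 10 passed limma's adjusted p of 0.05, where 8 loci or 0.0416% passed. With this covariate 7 of 10 differences were below 0.

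Levels were also set against the ribosomal protein genes of the same library, as a description. H2-K1 then stood at 7.79, 7.08 and 7.80 on the log2 scale in controls against 6.88, 6.58 and 7.02 in knockouts. Its groups did not overlap, with B6.Sle1b replicate 2 only slightly above the highest knockout library. It was 1 of 10 genes lower without overlap on this scale, against 0.338% of all loci. H2-D1 stood at 6.67, 5.80 and 6.93 against 6.27, 5.72 and 5.21, with overlap. B2m stood at 9.60, 8.73 and 9.41 against 8.98, 9.0 and 8.81, also with overlap. H2-Q6 (6.06, 7.34 and 7.62 against 7.29, 7.40 and 7.03) and Nlrc5 (4.71, 6.03 and 6.50 against 6.27, 5.98 and 4.98) had their lowest value in B6.Sle1b replicate 1, as did H2-Q4, H2-Q7 and H2-M3. Against the housekeeping genes, H2-K1 again did not overlap (8.14, 7.16 and 7.78 against 6.76, 6.37 and 7.003), and neither did H2-T22 (4.12, 4.24 and 4.56 against 3.21, 2.46 and 4.02). On that scale 2 of 10 genes were thus lower without overlap, against 0.941% of all loci.

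**Figure D3:**
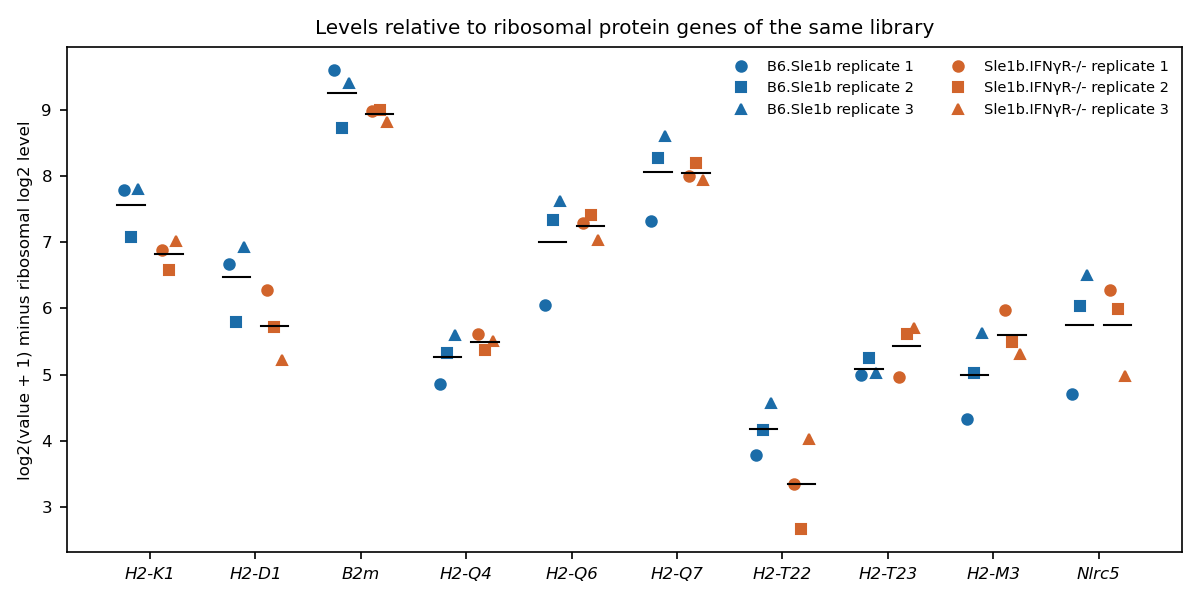
Log2(value + 1) of each gene minus the ribosomal protein log2 level of the same library, with B6.Sle1b in blue, Sle1b.IFNγR-/- in orange, a symbol per replicate and a line at the group mean. For H2-K1 the control libraries (7.08 to 7.80) all lie above the knockout libraries (6.58 to 7.02), while for Nlrc5 the group means are 5.75 and 5.74.

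The 10 genes fell apart in how much they varied between control libraries. From B6.Sle1b replicate 2 to replicate 1, the ribosomal protein level rose 4.10 times. Over the same pair H2-D1 rose 7.69 times, B2m 7.51 times and H2-K1 6.78 times. H2-T23 (3.53 times), H2-T22 (3.31 times), H2-Q4 (3.05 times) and H2-M3 (2.61 times) lay below the ribosomal figure. H2-Q7 (2.13 times), H2-Q6 (1.69 times) and Nlrc5 (1.65 times) moved least. Within Sle1b.IFNγR-/- the highest library was 1.15 times the lowest for B2m, 1.20 times for H2-Q7 and for H2-Q4, and 2.93 times for H2-T22.

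The make-up of the heavy-chain values does not depend on scaling between libraries. Shares here are of summed counts, without correction for length. H2-K1 and H2-D1 together made up 50.3%, 24.1% and 31.8% of the 8 heavy-chain loci in controls against 25.7%, 19.7% and 23.9% in knockouts, with means of 35.4% ± 13.4 and 23.1% ± 3.10 (SD, n = 3 each). Replicate 1 stood out, and the groups overlapped. H2-Q6 and H2-Q7 together made up 35.2%, 60.1% and 54.2% against 54.5%, 61.9% and 54.4%. H2-M3 made up 3.07%, 3.98% and 4.51% against 8.26%, 5.91% and 5.62%, and H2-Q4 4.48%, 4.97% and 4.42% against 6.39%, 5.39% and 6.43%. These 2 of 8 shares were higher in the knockout without overlap, and 17.8% of all loci were so on this scale. H2-T22 made up 2.08%, 2.13% and 2.12% against 1.198%, 0.696% and 2.21%.

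**Figure D4:**
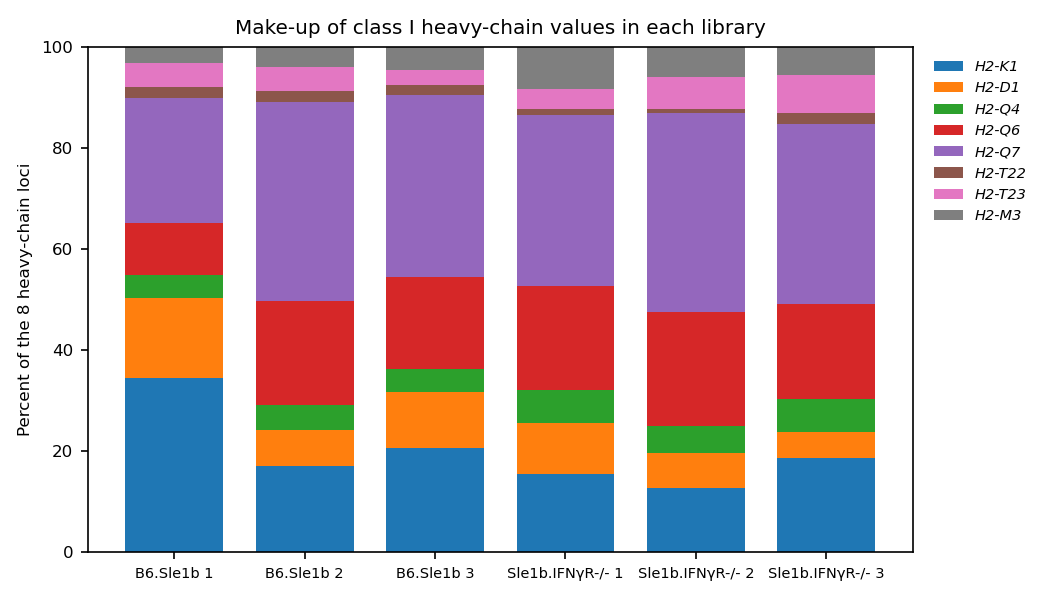
Stacked bars of the share of each of the 8 heavy-chain loci in their summed scaled count, 1 bar per library. H2-K1 and H2-D1 fill 50.3% of the bar of B6.Sle1b replicate 1 and 19.7% to 31.8% of the others.

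The light chain was compared with the heavy chains in the same way. B2m came to 1.21 times the heavy-chain sum in B6.Sle1b replicate 1, and to 0.543 and 0.630 times in replicates 2 and 3. In the knockouts it came to 0.671, 0.687 and 0.649 times, between these values. H2-K1 against B2m stood at -1.80, -1.65 and -1.61 on the log2 scale in controls against -2.10, -2.42 and -1.79 in knockouts, so that the third knockout library overlapped the controls by a small margin. H2-M3 against B2m stood at -5.27, -3.71 and -3.78 against -3.00, -3.50 and -3.49. It was 1 of 9 genes without overlap, and 10.5% of all loci were higher against B2m without overlap. The median over the 9 ratios was 0.31 higher in Sle1b.IFNγR-/-, and -0.25 without B6.Sle1b replicate 1, which turned its direction.

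Levels of different genes were compared per kilobase of GENCODE exon. The length joined the exons of all transcripts of a gene (2938 bases for H2-K1, 2085 for H2-Q6 and 4265 for H2-Q7), and the order depends on it. B2m was the highest in both groups, at 1295 ± 1271 scaled counts per kilobase in B6.Sle1b and 493 ± 37.2 in Sle1b.IFNγR-/- (SD, n = 3 each). In B6.Sle1b the heavy chains followed in the order H2-K1 (113 ± 103), H2-Q7 (85.7 ± 30.4), H2-Q6 (82.2 ± 21.8), H2-D1 (60.6 ± 53.7), H2-M3 (30.4 ± 13.1), H2-Q4 (20.97 ± 11.6), H2-T23 (17.8 ± 13.4) and H2-T22 (7.38 ± 4.22). Nlrc5 (8.41 ± 2.49) lay between the last 2, and the ranges of all neighbours in this order from H2-K1 on overlapped. Ranges leave out that the genes were measured in the same libraries. Within libraries, H2-M3 was above H2-Q4, and H2-Q4 above H2-T23, in all 3 controls. In Sle1b.IFNγR-/- H2-Q6 (63.0 ± 8.21) and H2-Q7 (53.8 ± 5.14) came first. Their ranges overlapped, though H2-Q6 was above H2-Q7 in each of the 3 libraries. They were followed without overlap by H2-K1 (33.6 ± 5.12), then H2-M3 (29.2 ± 7.54), H2-D1 (18.4 ± 6.90), H2-Q4 (14.8 ± 1.37) and H2-T23 (12.9 ± 3.37). Each of these overlapped the next in range, though H2-M3 was above H2-D1 in all 3 knockouts. Nlrc5 (5.76 ± 2.42) and H2-T22 (2.49 ± 1.28) were lowest, and overlapped. H2-K1 had the highest heavy-chain mean in the controls through B6.Sle1b replicate 1 alone, where it stood at 229.6. In replicates 2 and 3 it stood at 33.9 and 74.3, below H2-Q6 (57.2 and 92.6) and H2-Q7 (53.6 and 89.5), as in all 3 knockouts. H2-Q7 was above H2-Q6 only in B6.Sle1b replicate 1 (114 against 96.8).

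The heavy-chain genes are similar to each other, and how the authors placed reads that map to several places is not given in the sources used here. Of the different 50-base words in its GENCODE transcripts, H2-T22 shared 34.5% with another gene, mostly H2-T10 (31.2%). H2-Q6 shared 32%, H2-Q7 26.4%, H2-Q4 21.8%, H2-T23 13.6%, H2-D1 12.8% and H2-K1 9.63%. H2-M3 shared 0.576%, and B2m and Nlrc5 shared 0. Values of H2-Q6, H2-Q7 and H2-T22 are therefore uncertain as values of single genes.

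Other class I and class I-like chains were described from a list of 26 genes. Of 22 matched genes 16 were tested, with 8 higher, 8 lower and 0 past the threshold, and a median log2 difference of -0.0013. Their summed value ran from 607 to 704 in controls and from 519 to 647 in knockouts. That of the 10 class I genes ran from 940.5 to 4394 and from 1009.8 to 1164, so the spread between control libraries was wider for them. Hfe, a class I-like regulator of iron uptake, had 127, 60.8 and 90.9 against 69.1, 58.4 and 55.1. H2-Q2 had 17.3, 23.02 and 15.9 against 8.74, 19.1 and 1.198, and the groups of both overlapped.

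The peptide supply to class I was described with the immunoproteasome and peptide-loading list. Its 13 genes lie at 12 loci, because Psmb8 and Tap2 were merged, and 10 were lower, 2 higher and 0 past the threshold, with a median of -0.20. Psmb9, an interferon-inducible proteasome subunit, had 78.5, 11.5 and 25.3 against 12.2, 7.87 and 7.19, with a log2 difference of -1.59 (SE 0.62, limma adjusted p = 0.99976). Its groups overlapped by a small margin, and the difference was -0.88 both without B6.Sle1b replicate 1 and with the ribosomal covariate. These fits are not separate checks, since the covariate mainly sets that library apart. Calr, the chaperone calreticulin, had 130.4, 27.1 and 39.4 against 28.9, 23.6 and 21.6. With the ribosomal covariate the list's median was 0.11.

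Genes of class I transcriptional control gave 12 lower, 3 higher and 0 past the threshold of 15 tested, with a median of -0.43, or -0.039 with the covariate. Ifngr1, the ligand-binding receptor chain, had 81.5, 34.5 and 63.7 against 43.7, 21.4 and 23.96, with overlap. Its log2 difference was -0.98 (SE 0.41), or -0.71 without B6.Sle1b replicate 1. As the labels do not name the disrupted subunit, these values cannot check the genotype. Ciita, the class II counterpart of Nlrc5, had 304, 141 and 142 against 137, 126 and 144. The receptors and coreceptors of class I gave 5 lower, 2 higher and 0 past the threshold of 7 tested (median -0.39). Among them Cd244 had 47.9, 26.3 and 17.8 against 13.99, 15.7 and 19.2.

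Class II chains, which present peptides to CD4 T cells, have promoters with the same kind of X and Y box module as class I genes. All 7 tested loci were lower and 0 passed, with a median of -0.56 as deposited and -0.10 with the ribosomal covariate. The members had -0.60 and -0.27. H2-Aa had 1031, 335 and 491 against 329.7, 369.7 and 435, and H2-Eb1 160.0, 28.8 and 57.2 against 28.0, 16.9 and 47.9. Both overlapped between groups, and whether the members differ from class II chains in their response was not tested.

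Summed values of the immune and erythroid marker lists were highest in B6.Sle1b replicate 1 as well. Not every single marker was, with Ncr1 at 0 there. The sum of 6 B cell markers ran from 767 to 1674 in controls and from 797 to 874 in knockouts. All 6 had log2 differences below 0, as did 58.1% of all loci, and 0 passed the threshold. Their median was -0.28, or 0.11 with the ribosomal covariate. The summed value of 5 plasma cell markers ran from 136 to 729 in controls and from 109 to 130.4 in knockouts, a narrow separation. Singly, Xbp1 and Mzb1 overlapped. Igj (lowest control 53.4, highest knockout 52.8) and Prdm1 (59.2 and 50.3) were lower without overlap, as were 5.19% of tested loci. Sdc1 had 26.5, 4.93 and 7.50 against 2.62, 3.37 and 4.79, also without overlap. Its mean was below the filter of 10, so it was not tested, and these values rest on few fragments. The sum of 5 erythroid markers ran from 152 to 2087 and from 424 to 680.3. Of these 5, 4 were higher in the knockouts on the log2 scale, with a median log2 difference of 0.21, or 1.15 with the ribosomal covariate. All groups overlapped, and B6.Sle1b replicate 1 was the highest library for each of the 5, so the direction depends on the scale. Slc4a1, for example, had 578, 51.0 and 124 in controls against 228, 189 and 146 in knockouts. The 7 monocyte and macrophage markers ran from 309.9 to 1244 and from 484 to 532, the 6 T cell markers from 232 to 411 and from 224 to 249, the 6 neutrophil markers from 64.1 to 246 and from 77.8 to 108, the 6 dendritic cell markers from 217 to 363 and from 243 to 256, and the 6 NK cell markers from 37.8 to 74.4 and from 58.6 to 62.9. Pancreas markers reached at most 46.9, with 2 of 6 at 0 in every library. The part of these cell types in the class I values was not tested.

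The genes most like the members were found by correlation over the 6 libraries. Of 4854 named loci whose mean reached 50, members, immunoglobulin and T cell receptor segments, predicted genes, pseudogenes and clone-named loci were left out beforehand. Among 3832 candidate loci whose mean reached 50, the median member profile had its highest Pearson r with Whsc1 (0.996), Samhd1 (0.995), Xbp1 (0.994), Sec61a1 (0.993) and Pds5a (0.993). After the ribosomal level of each library was subtracted from both, the highest were Map3k1 (0.981), Ints4 (0.966), Polr2b (0.959), Tmx4 (0.959) and Usp8 (0.957). None of the first 5 was among the second. The 6 points share their scaling, and the first profile was highest in B6.Sle1b replicate 1 (1.10 on the centred log2 scale) and lowest in replicate 2 (-0.57).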

How the data were processed

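Spleen RNA was sequenced in 6 samples. Build GRCm38, TopHat2 2.0.9, Cufflinks 2.2.1 and CASAVA are named in the submitters' processing notes. The authors deposited a signal, namely Cufflinks fragment counts for each locus with quartile scaling, per the file headers. The strand setting, read placement and annotation release are unknown here. The table's 1530481 rows were collapsed to 426574 loci, of which 381780 had no gene name. In each library 99.8% of positive values were whole multiples, within 0.01, of 1 step, so a value of 3 fragments is 2.47 to 3.59 scaled counts. Tests for counts were not used, since not all values were whole. Another 24 columns of per-sample values were not used.

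Testing used limma (version 3.58.1, R 4.3.3) with its trend option and genotype as the only term, on log2(value + 1) of the loci that had a gene name and averaged 10 or more. The threshold was a Benjamini-Hochberg adjusted p of 0.05. The procedure was tested on simulated data, in which most of the smaller changes were not called, lower ones least often. Ratios, shares, word counts and motif matches, computed in python 3.11.15, are descriptions. The members and lists were chosen with earlier results of these data known. Named are all members and up to 4 genes of smallest p per list, with the 5 candidate loci of highest likeness on each of 2 scales. The shares, word counts, motifs and comparisons of overlap within libraries were added after the values were seen, and the shorter interferon motif after the longer one had been searched. Of the lists, Irf8, Lilrb4a, Rpl13, H2-L, H2-Q8, H2-Q9, H2-T9, Jchain, Emr1 and Hbb-b1 were not matched and not used here. Alternatives were 5 other scalings, a covariate, other filters and pseudocounts, robust limma, array weights, a replicate block and leaving out each library. Ribosomal scaling without B6.Sle1b replicate 1 was added after the data were seen. Lists of 14 constitutive proteasome genes (11 tested, 7 lower, median -0.19), 12 housekeeping genes (median -0.19) and 29 ribosomal protein genes (27 tested, median -0.57) also gave 0 past the threshold. Some genes of the lists are not reported here.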

Additional observations from a re-analysis of the deposited data

How the results depend on the processing

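Under 20 alternatives none of the 10 genes passed limma's adjusted p of 0.05, and the lowest was 0.059 (H2-K1 without B6.Sle1b replicate 2). The count of all loci past it was 0 as deposited, 1 with ribosomal scaling, 4 with housekeeping scaling, 8 with the ribosomal covariate, 4 with no low-value filter, 4 with array weights, 5 with ribosomal scaling without B6.Sle1b replicate 1, and 0 to 5 when single libraries were left out (5 without B6.Sle1b replicate 1 or 2). With the replicate block it was 0 and the members' median stayed at -0.60. Same-numbered libraries did not deviate together (correlations 0.012, -0.027 and -0.011), and not every library correlated best with its own number. Leaving out single libraries gave members' medians of -0.88 to -0.29. The median ratio to B2m ranged from -0.25 (without B6.Sle1b replicate 1) to 0.71 (without replicate 2) and the median level against ribosomal genes from -0.32 to 0.28. With ribosomal scaling, which moved the median of all loci from -0.083 to 0.48, signs turned for H2-Q4 (0.22), H2-Q6 (0.23), H2-T23 (0.33), Hfe (0.030), Procr (0.090), Ciita (0.15), Creb1 (0.013), Pirb (0.18), Klrc2 (0.12), H2-Aa (0.027) and H2-Ob (0.043). With the covariate they turned for H2-Q4 (0.062), H2-T23 (0.29) and Psme2 (0.011). They turned for H2-T23 with housekeeping scaling (0.089), which moved the median of all loci to 0.24, and with array weights (0.056), where H2-M3 had -0.063. Ribosomal scaling without B6.Sle1b replicate 1 gave 0.034 for H2-Q4, 0.30 for H2-T23 and 0.0032 for H2-Ob. With single libraries left out, H2-Q4 ranged from -0.73 to 0.057, H2-T23 from -0.57 to 0.32, H2-M3 from -0.37 to 0.30 and H2-Ob from -0.86 to 0.028. The causes were not tested. The planned count tests were not run, and each of the 10 genes had 1 locus, so that summing loci gave no other value. A minimum mean of 50 left 6 members. The depth limits H2-T22 most, with 4 to 40 fragments a library.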
